A study of Mus musculus with 10 samples.

Results

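The immunoglobulin light chain variable genes were examined in RNA-seq of mouse osteocytes. All rows of the deposited gene table whose name begins with Igkv or Iglv were taken, which gave 103 of 22548 genes. Of these, 100 were kappa variable genes (Igkv) on chromosome 6 and 3 were lambda variable genes (Iglv) on chromosome 16. Read counts were used, and the share of a gene is its percent of all Igkv and Iglv reads in a library. Of the 103 genes, 101 were found by gene identifier in the GENCODE M21 annotation of the mouse genome build GRCm38. There, 99 are listed as immunoglobulin variable genes and 2 as variable pseudogenes.

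An antibody light chain is encoded by a variable (V) gene that is joined to a joining (J) gene in developing B cells and is then spliced to a constant gene, Igkc for kappa. Each B cell usually keeps 1 productive light chain, so the cells of a clone carry the same V gene, and a mixed population of B cells and plasma cells carries many. Plasma cells, which secrete antibody, hold far more light chain mRNA per cell than B cells do. Myeloma is a cancer of clonal plasma cells. Osteocytes, the cells embedded in bone matrix, do not rearrange light chain genes, and B-lineage cells are the known source of light chain RNA.

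The libraries came from C57BL/6 male mice of 8 weeks. Osteocytes were released from femoral bone pieces by repeated collagenase and EDTA digestion after the marrow had been removed, and no sorting step is described. The MM group was 5 mice injected into the femur with Vk12598, a transplantable myeloma line from the Vk*MYC mouse whose MYC transgene is driven by kappa light chain regulatory sequences, and osteocytes were taken 6 weeks later. The No MM group was 5 control mice without myeloma cells, which according to the methods were injected with PBS. Each library is 1 mouse, the No MM libraries are numbered 1 to 5 and the MM libraries 6 to 10, and the labels match no mouse of a group to a mouse of the other. The study's text calls its own differential analysis paired, without naming the pairs, and the fits here are unpaired. All MM mice received the same line, so the group stands for that line only.

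Between 31099174 and 39466332 reads were counted per library. Among them, No MM 3 and No MM 4 stood apart before any comparison, and both are labelled as controls. All 234 immunoglobulin genes of the table together took 26.8% and 29.3% of their counts, against 0.644% to 3.98% in the other 8 libraries. The 11 measured plasma cell markers summed to 6450 and 6654 CPM (read counts scaled to library size by the TMM method) in these libraries. In the other 8 they summed to 488 to 860 CPM. The marker lists were chosen with earlier results of these data known. Of the plasma cell markers, Mzb1 was not raised, with 62.9 and 65.5 CPM beside 87.6 in No MM 1 and 70.4 in No MM 2. The 12 osteocyte markers summed to 1707 and 1075 CPM in No MM 3 and No MM 4, against 6415 to 21315 CPM in the other 8. Col1a1 made up most of each sum, with 1198 and 693 CPM in No MM 3 and No MM 4. Phex, at 20.9 and 19.6 CPM, was also below the other 8 (85.0 to 288 CPM). Sost was not, at 158 and 110 CPM beside 68.3 to 995 CPM. Whether these labels are right was not tested, and every value of MM over No MM takes them as given. Fits without both libraries are given beside the results.

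The 3′ end of a V gene enters the antigen-binding loop formed at the junction with the J gene. The germline 3′ ends of the genes that led at least 1 library, or changed most between libraries, are shown because they identify the genes on which the results turn. Each line holds the last 45 bases of framework in lower case, which end with the codon of the conserved cysteine, and in capitals the germline bases that follow it up to the end of the gene. The sequences are those of GENCODE M21 and are written in the sense direction. Positions are those of the deposited table, whose build is not given in the sources used here. The starts and ends of the 26 members named by the rule given with the methods lay within 248 bases of their GRCm38 positions in GENCODE.
Igkv4-91 (chr6:68768568-68769103, minus strand): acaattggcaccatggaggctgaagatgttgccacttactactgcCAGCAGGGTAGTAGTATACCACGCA
Igkv12-89 (chr6:68834846-68835307, minus strand): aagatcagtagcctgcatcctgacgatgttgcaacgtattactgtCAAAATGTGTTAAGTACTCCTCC
Igkv9-123 (chr6:67954228-67954690, minus strand): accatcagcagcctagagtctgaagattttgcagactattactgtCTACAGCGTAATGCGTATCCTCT
Iglv1 (chr16:19085017-19085460, minus strand): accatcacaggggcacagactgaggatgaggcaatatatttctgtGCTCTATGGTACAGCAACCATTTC
Igkv4-55 (chr6:69607275-69607801, minus strand): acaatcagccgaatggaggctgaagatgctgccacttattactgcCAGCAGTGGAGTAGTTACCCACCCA
Igkv15-103 (chr6:68437468-68437925, plus strand): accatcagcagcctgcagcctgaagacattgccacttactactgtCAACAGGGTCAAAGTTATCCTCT
Igkv8-27 (chr6:70171809-70172108, minus strand): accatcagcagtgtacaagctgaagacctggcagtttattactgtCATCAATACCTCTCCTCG
Igkv1-88 (chr6:68862265-68863031, minus strand): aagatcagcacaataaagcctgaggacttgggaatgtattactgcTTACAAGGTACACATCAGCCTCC
Igkv1-122 (chr6:68016742-68017488, plus strand): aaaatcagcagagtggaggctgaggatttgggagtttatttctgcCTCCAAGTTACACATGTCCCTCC
Igkv3-12 (chr6:70518250-70518849, plus strand): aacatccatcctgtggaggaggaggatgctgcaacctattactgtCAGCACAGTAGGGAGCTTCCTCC

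The genes can be told apart by their reads to different degrees. Libraries were read as 76-base paired ends, so every stretch of 76 bases in each V transcript was looked up in all other GENCODE transcripts. For Igkv4-91, Igkv12-89, Igkv9-123, Igkv8-27, Igkv15-103, Igkv1-122 and Igkv1-88, 100% of these stretches occurred in no other gene. The percent was 90.8% for Iglv1, 72.5% for Igkv3-12, 70.7% for Igkv4-55, 58.4% for Igkv4-59, 40.7% for Igkv6-20 and 34.2% for Igkv8-16, and the median of the 101 genes was 91.6%. Reads of the genes with low percentages can be shared with near copies, so their counts are less certain. The test covers germline sequence only; somatic mutations and the junction with the J gene are not part of it.

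The 103 genes took a small part of most libraries and a large part of No MM 3 and No MM 4. In No MM, the light chain variable reads were 0.586%, 0.671%, 5.72%, 6.53% and 0.136% of all counted reads in mice 1 to 5. In MM they were 0.182%, 0.339%, 0.178%, 0.277% and 0.257% in mice 6 to 10. The library with the fewest was therefore also a control, No MM 5 with 49793 reads, and the library with the most was No MM 4 with 2494389 reads. The medians were 0.671% in No MM and 0.257% in MM. The MM values lay within the range of the No MM values, and without No MM 3 and No MM 4 the No MM median was 0.586%. The widest 95% Wilson interval was that of No MM 4, 6.52% to 6.54%; such intervals cover counting error only. In bulk RNA, fewer B-lineage cells and less light chain RNA per cell cannot be told apart.

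**Figure D1:**
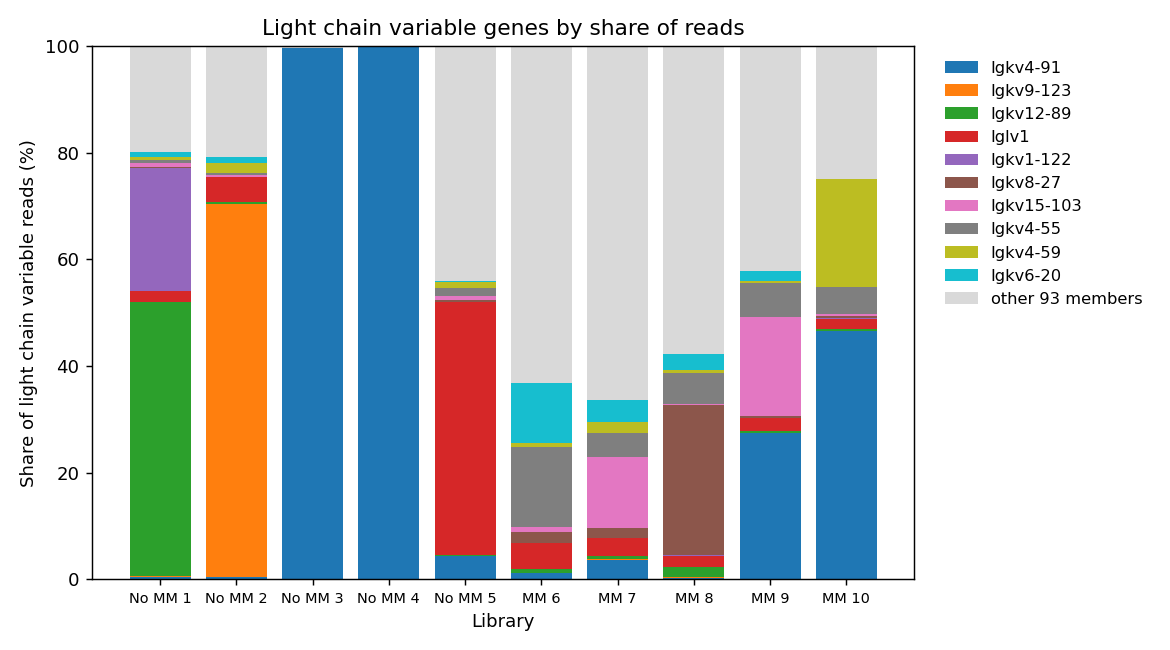
Each bar is 1 library and shows what percent of its light chain variable reads fell on each gene, with 10 genes in color and the other 93 in grey. Igkv4-91 fills No MM 3 (99.6%) and No MM 4 (99.8%), while other genes lead No MM 1, No MM 2 and No MM 5 and the grey part is largest in MM 6 to MM 8.

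The 10 libraries were led by 7 different genes, and the leading gene took a larger share in each No MM library (47.4% to 99.8%) than in any MM library (13.3% to 46.6%). In No MM 1, Igkv12-89 took 51.5% of the light chain variable reads and Igkv1-122 took 23.1%. In No MM 2, Igkv9-123 took 70.0%, followed by Iglv1 at 4.59%. In No MM 3 and No MM 4, Igkv4-91 took 99.6% and 99.8%, which was 2247856 and 2489988 reads. In No MM 5, Iglv1 took 47.4%, followed by Igkv3-2 at 6.15%. Over the kappa genes alone, the leading gene of No MM 5 took 11.8%, below the 13.9% to 47.7% of the MM libraries.
The MM libraries were more mixed. In MM 6, Igkv4-55 led with 14.9%, followed by Igkv6-20 with 11.2%. In MM 7, Igkv15-103 led with 13.3%, followed by Igkv4-70 with 8.997%. In MM 8, Igkv8-27 led with 28.3%, followed by Igkv4-55 with 5.92%.
Igkv4-91 came first again in the last 2 libraries of the group. It took 27.5% of the light chain variable reads in MM 9, where Igkv15-103 took 18.7% and Igkv12-44 took 8.70%. It took 46.6% in MM 10, where Igkv4-59 took 20.2%. The leading gene was thus the same in 4 of 10 libraries, 2 from each group, and different in the other 6. Dividing reads by gene length left the same gene in the lead in all 10 libraries.

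The number of genes among which the reads were spread was described by the effective number, the inverse of the sum of squared shares, which is 1 when a single gene takes all reads. It was 3.11, 2.02, 1.0085, 1.0035 and 4.23 in No MM 1 to 5, and 19.1, 21.7, 10.2, 7.90 and 3.80 in MM 6 to 10. Of the MM libraries, 4 lay above all No MM libraries, and MM 10 lay below No MM 5, so the groups overlapped. The median was 2.02 in No MM, 3.11 in No MM without mice 3 and 4, and 10.2 in MM.
The No MM 5 value comes from Iglv1. Over the kappa genes alone, the effective number of that library was 23.1, above those of all 5 MM libraries, which ran from 3.63 to 20.3. Among the kappa genes of No MM 5, Igkv3-2 led with 11.8%. The median over the kappa genes was 1.83 in No MM, 2.97 without mice 3 and 4, and 9.71 in MM. No test was made of these summaries, because they are scores over the chosen genes.

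**Figure D2:**
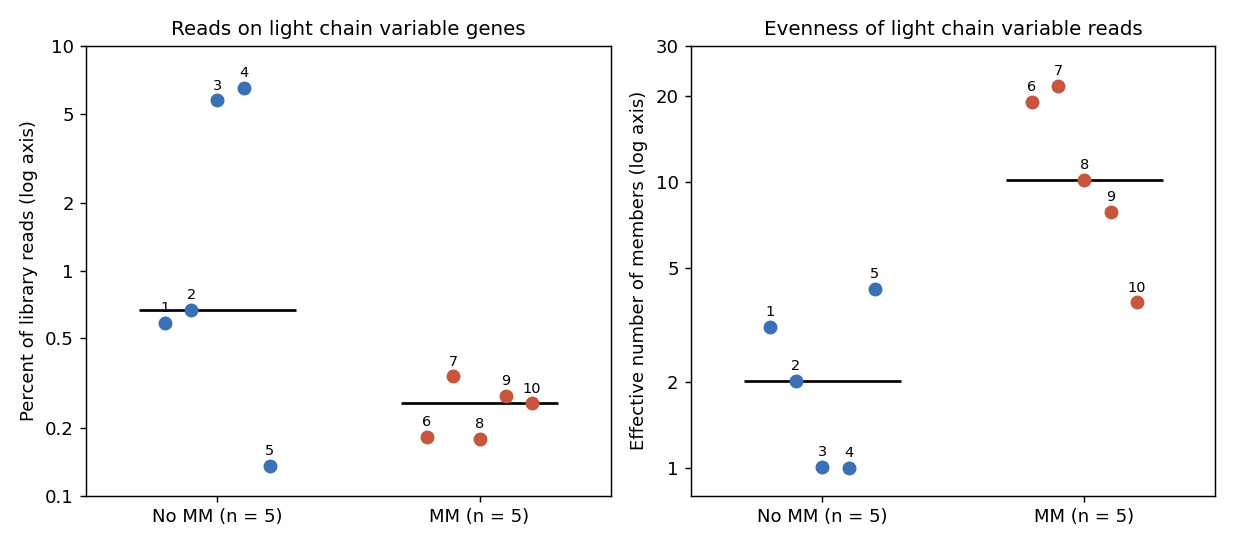
The left panel shows light chain variable reads as a percent of library reads and the right panel the effective number of genes, both on log axes, with 1 numbered point per mouse and a bar at the group median. The left panel spans 0.136% to 6.53% in No MM and 0.178% to 0.339% in MM, and on the right the medians are 2.02 and 10.2, with No MM 5 (4.23) above MM 10 (3.80).

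Beneath the leading gene, many V genes were read in every library. With the leading gene left out, the effective number was 4.18, 18.2, 7.47, 3.65 and 23.5 in No MM 1 to 5 and 24.0, 26.5, 28.3, 10.3 and 6.19 in MM 6 to 10. MM 9 and MM 10 were therefore low as well, with Igkv15-103 and Igkv4-59 as the next genes. These remaining reads came to 3367, 1974, 308, 160 and 642 CPM in No MM and 1366, 2630, 1144, 1761 and 1217 CPM in MM. No MM 3 and No MM 4 thus had the fewest reads on the other V genes while they had the most on Igkv4-91. Of the 103 genes, 65 were lower in both of these libraries than in all other 8. The share of all genes with this pattern was not determined, so the count is not a trait particular to V genes.
At least 3 counts were found for 88, 96, 74, 51 and 92 genes in No MM 1 to 5 and for 94, 97, 93, 94 and 92 in MM 6 to 10. At an equal number of light chain variable reads, that of No MM 5, the expected number of genes with at least 3 counts was 79.7, 83.0, 15.2, 7.18 and 92 in No MM and 92.2, 93.1, 90.0, 90.4 and 87.5 in MM. In all, 45 genes had at least 3 counts in every library, and 2 had fewer than 3 in every library.
The mixture below the leading genes was compared between mice. For any 2 libraries, the overlap was taken as the sum over genes of the smaller share, after the leading genes of both had been removed. It was between 47.0% and 62.3% for the 10 pairs of MM libraries, with a median of 50.8%. It was between 32.4% and 55.6% for the 3 pairs among No MM 1, No MM 2 and No MM 5, and 50.4% between No MM 3 and No MM 4. Between these 3 controls and the MM libraries it was 29.5% to 60.3%, with a median of 46.3% over 15 pairs. Between No MM 3 or No MM 4 and the other libraries it was 19.5% to 39.6% with the other controls and 20.9% to 40.9% with MM.

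Where a leading gene stood along the kappa locus varied from library to library. The 100 kappa genes spread over 22.9 to 3171 kb from Igkc. Igkv4-91 lies 1958 kb from Igkc, Igkv12-89 1892 kb, Igkv1-122 2710 kb and Igkv9-123 2772 kb, all in the far part of the locus or at its edge. Igkv8-27, which led MM 8, lies 555 kb away, Igkv4-55, which led MM 6, 1119 kb, and Igkv15-103, which led MM 7, 2289 kb. When the genes were ordered by distance and cut into the nearest 33, the middle 33 and the farthest 34, the farthest took 34.6%, 82.2%, 99.7%, 99.9% and 36.8% of kappa reads in No MM 1 to 5 and 30.3%, 46.6%, 22.8%, 60.3% and 60.1% in MM 6 to 10. Without the leading gene of each library, the farthest group took 22.9% to 73.2% in No MM and 23.6% to 44.7% in MM. The 73.2% belongs to No MM 1, where the remaining reads were led by Igkv1-122.

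**Figure D3:**
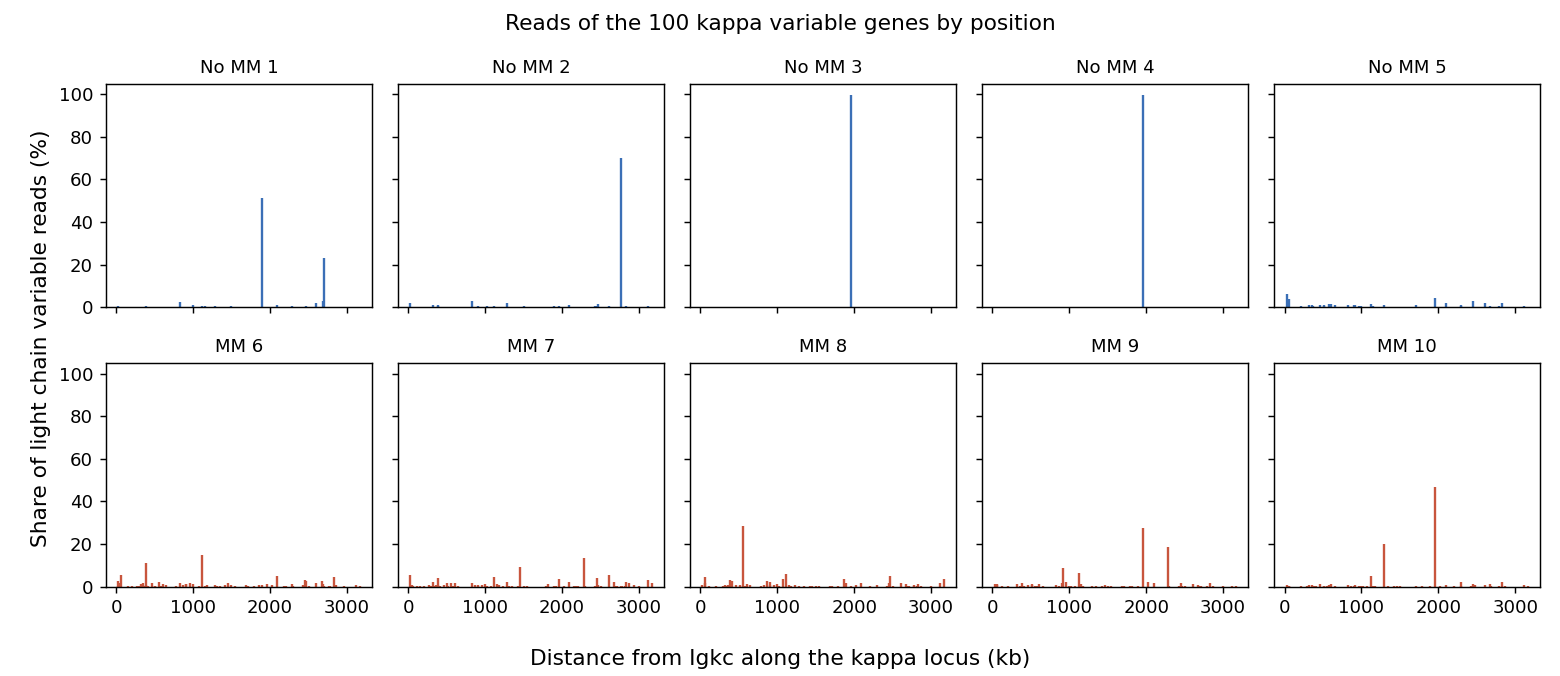
Each panel is 1 library, each line 1 of the 100 kappa genes, the horizontal axis the distance from Igkc in kb and the vertical axis the percent of light chain variable reads. A line at 1958 kb, Igkv4-91, reaches 99.6% and 99.8% in No MM 3 and No MM 4 and 27.5% and 46.6% in MM 9 and MM 10, and the other libraries have their highest lines elsewhere or, in No MM 5, no high line.

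Transcription direction also varied among the leading genes. In the kappa locus, 38 genes lie on the plus strand and 62 on the minus strand, and genes in the 2 orientations rearrange by inversion or deletion. Plus-strand genes took 34.2%, 9.89%, 0.254%, 0.123% and 50.5% of kappa reads in No MM and 36.9%, 47.7%, 28.7%, 32.7% and 13.2% in MM. The low values again belong to libraries led by a minus-strand gene.
By sequence family, Igkv4 is the largest with 27 genes, and it held the most reads in 6 libraries. It took 99.6% and 99.8% in No MM 3 and No MM 4, 23.5% and 25.0% in MM 6 and MM 7, and 39.3% and 74.7% in MM 9 and MM 10. In MM 8 the Igkv8 family was ahead with 33.1%, beside 14.1% for Igkv4, and in No MM 1, No MM 2 and No MM 5 it was Igkv12 (52.4%), Igkv9 (70.3%) and Iglv (47.9%). Igkv4 without the leading gene of each library took 1.52% to 19.8% of the rest in No MM and 10.1% to 52.6% in MM.

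Igkv4-91 (ENSMUSG00000076532) was the most read gene of the set. It held 85.4% of all light chain variable reads of the series. Its reads were 668, 884, 2247856, 2489988 and 2142 in No MM 1 to 5 and 710, 4193, 199, 24185 and 40880 in MM 6 to 10. On the CPM scale these were 25.4, 24.9, 72626, 90371 and 52.5 in No MM and 18.4, 113, 4.70, 667 and 1064 in MM. The lower of No MM 3 and No MM 4 was 68.3-fold above the highest of the other 8 libraries, and MM 9 and MM 10 were at least 5.88-fold above the remaining 6.
The groups therefore overlapped, with the 2 highest and 2 of the 4 lowest libraries in No MM. The log2 fold change of MM over No MM was -6.45 ± 2.56 (SE), with an adjusted p of 0.321 in edgeR's quasi-likelihood test with Benjamini-Hochberg adjustment. In DESeq2 it was -6.41, with an adjusted p of 0.0510. An exact permutation test over the 252 assignments of 10 mice to groups of 5 gave p = 0.357 (two-sided, difference of mean log2 CPM, smallest possible p 0.00794). Without No MM 3 and No MM 4 the direction turned, with a log2 fold change of 3.44 and an unadjusted p of 0.0548.

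The nearest relatives of Igkv4-91 had few reads in No MM 3 and No MM 4, where it was highest. The 3 genes nearest to it in sequence over the whole transcript were Igkv4-70 (87.4% identity), Igkv4-79 (87.2%) and Igkv4-61 (86.9%). The 75 bases up to the conserved cysteine codon are shown for these genes, with bases that differ from Igkv4-91 in capitals, to show how close these genes are beside a difference in reads.
Igkv4-91: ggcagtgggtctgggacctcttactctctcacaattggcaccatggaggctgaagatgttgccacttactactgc
Igkv4-70: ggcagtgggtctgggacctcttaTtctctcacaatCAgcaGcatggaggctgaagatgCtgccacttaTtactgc
Igkv4-79: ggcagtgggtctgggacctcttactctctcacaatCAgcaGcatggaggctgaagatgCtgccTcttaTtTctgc
Igkv4-61: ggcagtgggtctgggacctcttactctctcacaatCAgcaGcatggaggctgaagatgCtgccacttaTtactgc
Within this stretch the 3 genes differ from Igkv4-91 at 6, 7 and 5 positions. Beside 2247856 reads of Igkv4-91 in No MM 3, Igkv4-70 had 12 reads, Igkv4-79 had 1 and Igkv4-61 had 7. Beside 2489988 reads in No MM 4, they had 5, 1 and 0. The neighbors of Igkv4-91 on the chromosome, Igkv4-90 and Igkv4-92, had 2 and 1 reads in No MM 3 and 0 and 0 in No MM 4, where a count of 0 allows up to 3 counts. In MM 9 and MM 10 other genes of the family were read as well. Igkv4-55 (86.4% identity) had 5579 and 4556 reads there beside 24185 and 40880 of Igkv4-91, and Igkv4-59 (86.1% identity) had 327 and 17689.

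Among the tested genes outside the set, 5 followed Igkv4-91 most closely over the 10 libraries, by Pearson's r of log2 CPM. They were Ighv1-15 (r = 0.992), a heavy chain variable gene, Fgf21 (0.988), a metabolic hormone of the fibroblast growth factor family, Sis (0.987), the intestinal sugar-digesting enzyme sucrase-isomaltase, Dpysl5 (0.976), known from neurons, and Acot4 (0.976), an acyl-CoA thioesterase. These points share library and depth, and No MM 3 and No MM 4 lie far from the rest. Over the 8 other libraries, r was 0.966 for Ighv1-15, 0.959 for Fgf21, 0.962 for Sis, 0.901 for Dpysl5 and 0.902 for Acot4. These 8 were among the 10 by which the genes were picked, so these values test nothing. Dpysl5 and Acot4 had few reads there, with 19 and 13 in MM 9, 31 and 28 in MM 10, and at most 12 and 11 elsewhere.
Ighv1-15 had 349, 476, 1048091, 1042847 and 297 reads in No MM and 431, 1420, 108, 11852 and 18023 in MM. It took 99.1% and 99.3% of all heavy chain variable reads in No MM 3 and No MM 4 and led MM 9 with 33.6% and MM 10 with 44.1%, the same 4 libraries that Igkv4-91 led. In the other 6 it took at most 3.08%. The number of Ighv1-15 reads per Igkv4-91 read was 0.522, 0.538, 0.466, 0.419 and 0.139 in No MM and 0.607, 0.339, 0.543, 0.490 and 0.441 in MM. This ratio, not corrected for gene length, thus ran from 0.339 to 0.607 in 9 libraries whose Igkv4-91 reads ran from 199 to 2489988, and was lower in No MM 5.
Sis had 18799 and 12078 reads in No MM 3 and No MM 4, 275 in MM 9, 673 in MM 10, 64 in MM 7 and at most 9 in the others. Fgf21 had 5004 and 4658 reads in No MM 3 and No MM 4, 63 in MM 9, 111 in MM 10, 19 in MM 7 and at most 7 in the others. Both were thus highest in the 5 libraries in which Igkv4-91 was highest.

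Igkv3-12 was the only other V gene that was higher in No MM 3 and No MM 4 than in all other 8 libraries. Its CPM was 5.87, 4.25, 78.2, 79.6 and 9.14 in No MM and 3.70, 4.05, 3.43, 6.53 and 4.63 in MM. Its log2 fold change was -2.99 ± 0.83 (SE) with an adjusted p of 0.315 in edgeR and 0.0207 in DESeq2. It was -0.54 without No MM 3 and No MM 4. Unlike Ighv1-15, it did not follow Igkv4-91 into MM 9 and MM 10, where it had 237 and 178 reads beside 143 to 150 in MM 6 to MM 8. Igkv3-12 is 69.1% identical to Igkv4-91. The share of all genes that were higher in No MM 3 and No MM 4 than in all other 8 libraries was not determined.

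Igkv1-88 (ENSMUSG00000076535) was low in all No MM libraries and high in 2 MM libraries. It had 20, 28, 15, 2 and 30 reads in No MM 1 to 5 and 487, 27, 2406, 30 and 21 in MM 6 to 10. On the CPM scale these were 0.762, 0.788, 0.485, 0.0726 and 0.735 in No MM and 12.6, 0.730, 56.9, 0.827 and 0.546 in MM. MM 6 and MM 8 stood far above all controls, MM 9 was just above the highest of them, and MM 7 and MM 10 lay among them, so the groups overlapped.
The log2 fold change was 4.64 ± 1.37 (SE), with an adjusted p of 0.315 in edgeR and 0.0139 in DESeq2. The exact permutation test gave p = 0.111. Without No MM 3 and No MM 4 the log2 fold change was 4.19, and without MM 8 it was 2.68. Even in MM 8 the gene took only 3.56% of the light chain variable reads, and in MM 6 it took 0.785%.
The tested genes outside the set that followed Igkv1-88 most closely were Nr4a1 (r = 0.918), an immediate early nuclear receptor, Disc1 (0.913), Pank1 (0.888), a pantothenate kinase of coenzyme A synthesis, Lyz1 (0.876), a lysozyme, and Mras (0.875), a small GTPase of the Ras family. Without MM 6 and MM 8, the farthest from the median, r lay between 0.464 and 0.794 over 8 libraries, lowest for Disc1 and highest for Nr4a1. The relatives of Igkv1-88 were no guide to it. Igkv1-110, at 85.5% identity, had 556, 1230, 138, 31 and 1565 reads in No MM and 1917, 4689, 1081, 1548 and 1133 in MM.

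Between MM and No MM, no V gene passed the test across all genes. Of the 103 genes, 80 passed the filter on low counts and were tested. The remaining 23 fell below it, some despite 1 high library, such as Igkv14-130 with 958 reads in MM 7. In edgeR, 0 of the 16186 tested genes (0%) had an adjusted p under 0.05, V genes included. At an unadjusted p under 0.05, 16 of the 80 V genes were higher in MM and 6 were lower, where 3.81% of all tested genes were higher and 10.3% lower. The median log2 fold change was 0.75 over the 80 genes and -0.03 over all tested genes. The filter asks for enough reads in at least 5 libraries, the size of a group, so a gene could pass through 1 group alone. The counts therefore describe these genes and test nothing.
DESeq2 gave an adjusted p under 0.05 to 4 V genes, Igkv8-27, Igkv1-88 and Igkv8-16 as higher and Igkv3-12 as lower, where it called 0.176% of all genes with an adjusted p higher and 0.998% lower. Without No MM 3 and No MM 4, 7 V genes were higher and 7 lower at an unadjusted p under 0.05, where 2.51% of all genes tested in that fit were higher and 3.37% lower, and the median was 0.22 beside -0.017 over all genes. Without MM 7 the count of higher V genes was 8, beside 2.57% of all genes, and without No MM 1 the count of lower V genes was 3, beside 11.4% of all genes. The values of MM and No MM did not overlap for 2 of the 80 genes, both higher in MM, beside 0.729% of all tested genes that were higher without overlap and 0.68% that were lower. With No MM 3 and No MM 4 set aside, the same 2 genes were higher without overlap and Iglv1 was lower, beside 2.54% and 1.35% of all tested genes.

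**Figure D4:**
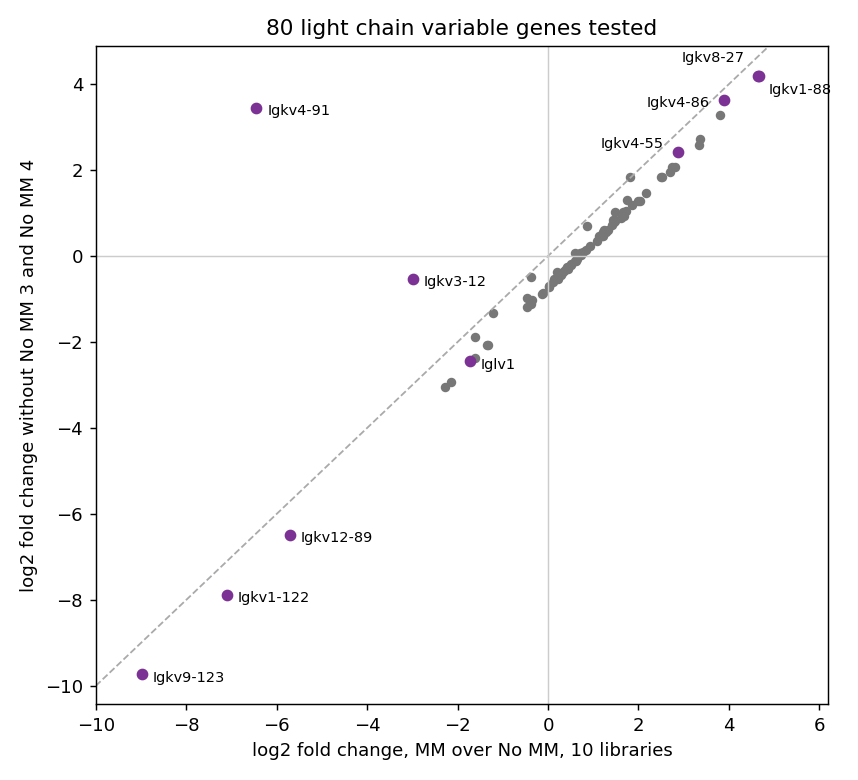
Each point is 1 of the 80 V genes tested, with the log2 fold change of MM over No MM in all 10 libraries on the horizontal axis and the same without No MM 3 and No MM 4 on the vertical axis; the dashed line marks equal values. Most genes lie somewhat below the line, Igkv4-91 moves from -6.45 to 3.44, Igkv3-12 from -2.99 to -0.54, and 18 genes change sign.

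The genes without overlap were Igkv4-55 and Igkv9-120. Igkv4-55 had 38.5, 25.0, 19.6, 0.0363 and 18.2 CPM in No MM 1 to 5 and 239, 137, 94.4, 154 and 119 CPM in MM 6 to 10. Every MM mouse was thus above every control, and the No MM 4 value was a single read. The log2 fold change was 2.87 ± 0.88 (SE), with an adjusted p of 0.315 in edgeR and 0.0549 in DESeq2. It was 2.43 without No MM 3 and No MM 4, with an unadjusted p of 0.000107 and an adjusted p of 0.643. Its share of light chain variable reads was at most 1.49% in No MM and between 4.51% and 14.9% in MM. Several near copies exist, such as Igkv4-68 (95.8% identity) with 419, 170, 234, 249 and 233 reads in MM.
Igkv9-120 had 9.94, 12.7, 0.711, 0.726 and 4.63 CPM in No MM and 40.03, 65.5, 17.8, 13.6 and 27.3 CPM in MM. The lowest MM value, 13.6, was close to the highest No MM value, 12.7. Its log2 fold change was 2.51 ± 0.80 (SE), with an adjusted p of 0.315, and without No MM 3 and No MM 4 it was 1.84.

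The genes with the largest log2 fold changes toward MM were highest in 1 or 2 mice. Igkv8-27 had 9.26, 4.45, 2.58, 1.38 and 4.14 CPM in No MM and 32.5, 55.3, 451, 6.53 and 9.81 CPM in MM. MM 9 lay among the controls, the other 4 MM mice were above all of them, and MM 8, which this gene led, was far above the rest. For MM over No MM the log2 fold change was 4.67 ± 1.18 (SE), with an adjusted p of 0.315 in edgeR and 0.00374 in DESeq2, and was 2.58 without MM 8 and 4.18 without No MM 3 and No MM 4.
Igkv4-86 had 36.2 CPM in MM 7 and at most 2.37 CPM in any other library, and its log2 fold change of 3.89 was 1.07 without MM 7. Igkv8-16 had 15.3 CPM in MM 7, 3.78 in MM 8 and at most 0.873 elsewhere, and its log2 fold change of 3.81 was 2.16 without MM 7. Igkv4-70 had 273 CPM in MM 7 and at most 26.2 elsewhere, and its log2 fold change of 3.33 was 1.13 without MM 7. A single mouse, MM 7, was thus the highest for all 3. With No MM 3 and No MM 4 left out instead, the log2 fold changes were 3.63 for Igkv4-86 (unadjusted p from 0.0121 to 0.05001), 3.28 for Igkv8-16 (0.0112 to 0.0498) and 2.59 for Igkv4-70 (0.0409 to 0.112).
Igkv15-103 was high in 2 mice, at 16.5, 405, 0.992, 453 and 7.52 CPM in MM and 50.05, 20.4, 6.72, 0.254 and 8.53 CPM in No MM. Its log2 fold change was 3.36 ± 1.55 (SE), with an adjusted p of 0.358, and 2.71 without No MM 3 and No MM 4. Igkv12-44 had 211 CPM in MM 9 and 13.5 to 31.4 in the other MM mice, with 20.2, 11.0, 1.68, 0.798 and 11.2 CPM in No MM. Its log2 fold change was 2.75, 1.34 without MM 9, and 2.07 without No MM 3 and No MM 4, where the unadjusted p went from 0.0179 to 0.0552.

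The largest log2 fold changes toward No MM, other than those of Igkv4-91 and Igkv3-12, also came from single mice. Igkv9-123 had 4596 CPM in No MM 2 and 14.3, 0, 0.218 and 0.196 CPM in No MM 1, 3, 4 and 5. In MM it had 2.35, 3.89, 1.89, 0.717 and 0.260 CPM. Its log2 fold change was -8.98 ± 3.03 (SE), with an adjusted p of 0.315, and was -1.05 without No MM 2 and -9.73 without No MM 3 and No MM 4.
Igkv12-89 had 3572 CPM in No MM 1 and 32.4, 3.39, 0.944 and 2.74 CPM in the other controls, against 10.2, 13.9, 30.1, 9.81 and 5.36 CPM in MM. Its log2 fold change of -5.70 turned to 0.49 without No MM 1 and was -6.49 without No MM 3 and No MM 4. Igkv1-122 had 1600 CPM in No MM 1 and at most 3.70 CPM in every other library, and its log2 fold change of -7.09 turned to 2.27 without No MM 1 and was -7.88 without No MM 3 and No MM 4. Igkv17-121 (217 CPM) and Igkv4-92 (25.9 CPM) were also more than 10-fold higher in No MM 1 than in any other library.
In all, 8 of the 103 genes were more than 10-fold higher in 1 library than in any other. Of these, 4 were highest in No MM 1, 3 in MM 7 and 1 in No MM 2. The share of all genes with such a peak was not determined, so the count is not a trait particular to V genes. MM 7 was the highest library for 25 genes, No MM 2 for 19, MM 6 and MM 9 for 13 each, No MM 1 for 12, and No MM 3 for 0.

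**Figure D5:**
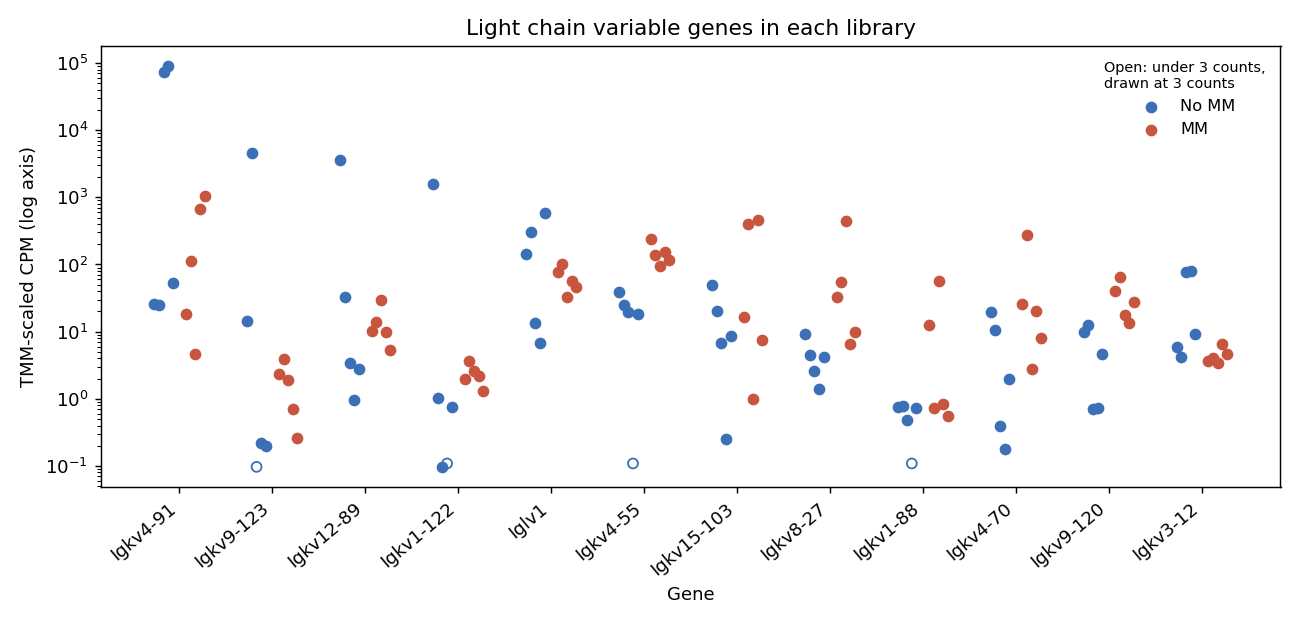
TMM-scaled CPM of 12 V genes on a log axis, with 1 point per library in order of mouse number, No MM in blue and MM in red; open circles are libraries with under 3 counts, drawn at 3 counts. Most genes have 1 or 2 high points and a low band shared by both groups, and Igkv4-55 is the gene with all 5 MM points clearly above all No MM points.

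Lambda genes were a small part of all libraries except No MM 5. The 3 Iglv genes took 2.29%, 5.00%, 0.0288%, 0.0190% and 47.9% of light chain variable reads in No MM and 5.29%, 4.40%, 2.58%, 2.73% and 2.33% in MM. Iglv1 held 76.8% to 99.0% of these reads in 8 libraries, 65.1% in No MM 3 and 38.7% in No MM 4, where Iglv3 had more. It had 145, 301, 13.7, 6.68 and 578 CPM in No MM and 77.3, 102, 32.6, 56.8 and 45.4 CPM in MM. The 3 controls outside No MM 3 and No MM 4 were all above the MM mice and those 2 were all below them. The log2 fold change was -1.73 ± 0.95 (SE), with an adjusted p of 0.423, and -2.45 with an unadjusted p of 0.000461 and an adjusted p of 0.643 without No MM 3 and No MM 4.
Iglv2, which differs from Iglv1 at 12 of 366 aligned bases, did not go along with it. It had 4.07 CPM in No MM 5, where Iglv1 was highest, and its own highest value was 25.5 CPM in MM 7. Iglv3 had 8.11, 19.4, 6.49, 10.1 and 1.64 CPM in No MM and 3.05, 5.57, 2.69, 3.80 and 4.55 CPM in MM, with a log2 fold change of -1.22 ± 0.52 (SE) and an adjusted p of 0.336, and -1.32 without No MM 3 and No MM 4. Unlike Iglv1, it was lowest in No MM 5.

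The light chain constant genes moved with the total of the V genes. Igkc had 9445, 9491, 88357, 103067 and 959 CPM in No MM and 2699, 5256, 2453, 4723 and 3327 CPM in MM. The number of Igkv reads per Igkc read was 0.718, 0.658, 0.825, 0.878 and 0.663 in No MM and 0.563, 0.552, 0.633, 0.4999 and 0.670 in MM. It was highest in No MM 3 and No MM 4. The lambda constant gene Iglc2 went another way. It had 1022 and 1470 CPM in No MM 3 and No MM 4, where the lambda V genes were lowest, so that there were 0.0206 and 0.0117 Iglv reads per Iglc2 read. In No MM 5 there were 21.9, and in the other 7 libraries 0.701 to 4.16. Under these names, Iglc1, Iglc3, Iglc4, Iglj1, Iglj2 and Iglj3 were absent from the deposited gene table, so these ratios rest on Iglc2 alone. Of the 7 constant and J genes measured, 6 were lower in MM at an unadjusted p under 0.05 and 0 higher. Of all tested genes, 10.3% were lower and 3.81% higher. Among the 7, 0 had an adjusted p under 0.05. Without No MM 3 and No MM 4, 3 J genes (Igkj1, Igkj2 and Igkj3) were higher at an unadjusted p under 0.05 and 0 genes were lower. Of all genes tested in that fit, 2.51% were higher and 3.37% lower. The median log2 fold change of the 7 turned from -3.14 to 0.98. That of Igkc was -3.52 in all libraries and -0.87 without No MM 3 and No MM 4.

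Genes of the B lineage were read beside the V genes, from lists chosen with earlier results of these data known. All 11 plasma cell genes measured were lower in MM at an unadjusted p under 0.05, where 10.3% of all tested genes were lower. Of the 11, 0 had an adjusted p under 0.05. Without No MM 3 and No MM 4, 1 of the 11 was lower at an unadjusted p under 0.05, Mzb1, and 0 were higher. Of all genes tested in that fit, 3.37% were lower and 2.51% higher. Pou2af1, a coactivator of immunoglobulin transcription, had 1934 and 2339 CPM in No MM 3 and No MM 4 and 31.5 to 90.6 CPM in the other 8 libraries. Xbp1, the transcription factor of the secretory program, had 1929 and 1932 CPM against 198 to 356. Mzb1, an endoplasmic reticulum protein of antibody-secreting cells, did not share this pattern, with 62.9 and 65.5 CPM in No MM 3 and No MM 4 beside 87.6 in No MM 1 and 70.4 in No MM 2.
The 12 B cell genes summed to 200 and 250 CPM in No MM 3 and No MM 4 and to 296 to 675 CPM elsewhere. Of these, 1 was higher in MM at an unadjusted p under 0.05, the inhibitory receptor Cd22, where 3.81% of all tested genes were. Cd79b, a part of the B cell receptor, went the other way, with 166 and 213 CPM in No MM 3 and No MM 4, above the 60.9 to 123 CPM of the other 8. Of the 11 recombination and surrogate light chain genes, which serve V gene joining and the pre-B cell receptor, 0 differed at an unadjusted p under 0.05. Without No MM 3 and No MM 4, 1 did, the end-processing nuclease gene Dclre1c. It was higher in MM, as were 2.51% of all genes tested in that fit. Rag1, the recombinase gene, had 0.194 and 2.61 CPM in No MM 3 and No MM 4 and 2.41 to 25.1 CPM elsewhere. Of the 12 osteocyte genes, 0 differed at an unadjusted p under 0.05 with or without these libraries. The part of plasma cell, B cell and osteocyte RNA in the results on the V genes was not tested.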

How the data were processed

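One RNA-seq library per mouse was made from total RNA with a stranded kit and read as 76-base paired ends. Per the labels' processing notes, FastQC 0.11.5 and STAR were used; the counting program, annotation and genome build are not given in the sources used here. The authors deposited whole-number read counts per gene, and these counts were analyzed here. The deposited signal columns are the counts divided by 1 size factor per library (0.765 to 1.20). The deposited FPKM values, the authors' log2 fold changes and the authors' p-values and adjusted p-values were not used.

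MM was compared with No MM in edgeR 4.0.16 (R 4.3.3) by the quasi-likelihood test, without covariates, on 16186 of 22548 genes left by filterByExpr, with TMM factors and Benjamini-Hochberg adjustment over all of them. The log2 CPM used a prior count of 2. The SE given with an edgeR log2 fold change is its absolute value divided by the square root of the F statistic. It is not an output of the fit. The fit was tested on simulated data. Alternatives were DESeq2 1.42.0, other size factors, other filters, and fits without single mice or without No MM 3 and No MM 4. Library sizes without immunoglobulin genes were also tried. Shares have Wilson intervals at 95%, and 3 counts were taken as the limit of detection. Expected numbers of genes at equal depth were computed from the hypergeometric distribution. Sequences were taken from GENCODE M21 and aligned globally with Biopython 1.88.

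The V genes and gene lists were chosen with earlier results of these data known. Genes named were Igkv4-91 and Igkv1-88, the leader of each library, the 5 largest mean shares over 10 and over 8 libraries, all Iglv genes, up to 5 genes per direction with the largest change at an unadjusted p under 0.05, the 3 most read relatives of each leader with over 1/3 of a library's light chain variable reads, and the 5 genes most like each of Igkv4-91 and Igkv1-88. Other genes (such as Igkv3-2, Igkv6-20, Igkv4-79, Igkv4-90, Igkv4-92 and Igkv17-121) were chosen after their values were seen.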

Additional observations from a re-analysis of the deposited data

Results flagged for a closer look

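In groups of 5 mice, a mouse was singled out when its gap to the nearest other mouse exceeded 0.71 of the group's range (Dixon's criterion at 95%). Over 62 sets of 5 values, 6 were singled out. Independent sets picked without regard to their values would give about 3.1. These sets share mice, and many of their genes were named for a high share or a large change. The 6 can therefore not be set against chance. CPM was compared on the log2 scale with values under 3 counts set to 3 counts.

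Lambda genes took 47.9% of light chain variable reads in No MM 5 and 0.0190% to 5.00% in the other No MM mice. Igkv1-122 had 1600 CPM in No MM 1 and at most 1.014 CPM in the other No MM mice. Igkv8-16 had 0.873 CPM in No MM 2 and at most 0.194 CPM in the others.

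The library labelled No MM 4 was singled out as the lowest for 3 genes. Igkv4-55 had 0.0363 CPM there, a single read, against 18.2 to 38.5 CPM in the other No MM mice. Igkv4-86 also had a single read there (0.0363 CPM), against 0.619 to 0.743 CPM. Igkv1-88 had 2 reads (0.0726 CPM), against 0.485 to 0.788 CPM. In this library Igkv4-91 took 99.8% of the light chain variable reads. No MM 3 and No MM 4 were not singled out for Igkv4-91 itself, since each lay beside the other.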

How the results depend on the processing

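No paired analysis was possible because the No MM mice are numbered 1 to 5 and the MM mice 6 to 10, so the groups share no number. The count of V genes higher in MM at an unadjusted p under 0.05 was 16 in all libraries, beside 617 of all 16186 tested genes. With at least 10 counts required in every library it was 6, beside 580 of 14160 genes. That filter left fewer V genes to test, 30. Without No MM 3 and No MM 4 it was 7, beside 417 of 16600 genes. With 1 mouse left out it was lowest without MM 7, at 8 beside 421 of 16377 genes. It was highest without No MM 1, at 20 beside 476 of 16467 genes. The count of lower V genes was 6 in all libraries, beside 1664 of 16186 genes. With 1 mouse left out it was lowest without No MM 1, at 3 beside 1882 of 16467 genes. It was highest without No MM 3, at 7 beside 941 of 16367 genes. Genes with an adjusted p under 0.05 numbered 0 in every edgeR fit and 4 in DESeq2.

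The direction turned without No MM 3 and No MM 4 for Igkv4-91 (3.44), Igkv4-57-1 (-0.27) and Igkv9-124 (-0.44). With 1 mouse left out, log2 fold changes ranged from -6.20 to 0.49 for Igkv12-89, -7.46 to 2.27 for Igkv1-122, -0.62 to 2.86 for Igkv4-59 and -0.029 to 1.56 for Igkv9-124. For the other 20 of 26 named genes with a fit, no alternative turned the direction.

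With the leading gene left out, the median share of the next gene was 25.4% in No MM and 13.2% in MM, and the median effective number was 7.47 and 24.0. The median number of V genes detected in MM, 94 at 3 counts, was 100 at 1 count, 85 at 10 counts and 90.4 at the smallest light chain variable total. The cause was not tested where the construction of the alternative does not show it. Leaving out No MM 3 and No MM 4 for the counts of groups without overlap, the kappa medians and the gene lists was chosen after seeing the data.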

Other observations

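In MM, Igkv6-20 and Igkv3-5 were high in the same mouse as Igkv4-55. Igkv6-20 had 180 CPM in MM 6, its highest value, and 1.51 CPM in MM 10, its lowest in that group. Igkv3-5 had 85.7 CPM in MM 6 and 74.5 CPM in MM 8, against 2.84 to 14.1 CPM in the other 3 MM mice and 0.145 to 18.5 CPM in No MM. Igkv14-130 had 25.9 CPM in MM 7 and at most 0.922 CPM in any other library. Igkv16-104 differed from most V genes in No MM 4, where it had 15.8 CPM against 0.355 CPM in No MM 3, and its highest value was 46.9 CPM in MM 10. These genes were chosen after their values were seen.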
